A study of Homo sapiens with 4 samples.

Results

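In cells labelled MIA PaCa-2 and treated with trametinib, an inhibitor of the kinases MEK1 and MEK2, 274 of 10574 genes had at least 2 times their control level (2.59% of the genes). For 89 of these 274 genes (32.5%), trametinib gave less than a 1.5-fold difference once the natural compound NBT (neobractatin) was present in both libraries compared, and these 89 genes are described here. They include the basal keratin KRT15, 5 genes of cholesterol and fatty acid synthesis or transport (SCD, HMGCS1, LSS, MVK and STARD4), the NOTCH ligands JAG2 and DLL1, the retinoic acid enzyme ALDH1A3 and the receptor FGFR3. The members were chosen by 2 ratios of CPM (estimated reads scaled to a common library sum, after adding 0.5 reads to each count), trametinib over control of at least 2 and the combination over NBT alone of less than 1.5. A gene also needed at least 100 estimated reads in 1 of the 4 libraries. Of 16834 genes in the table, 10657 had that many reads, and leaving out 44 symbols starting with LOC and 39 read-through symbols left 10574. The 185 other genes with a trametinib ratio of at least 2 kept a ratio of at least 1.5 over NBT and serve as the comparison group.

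MIA PaCa-2 is an established human line from a pancreatic ductal adenocarcinoma (PDAC). The cells were wild type by their labels and received no drug (control), 1 µM NBT, 5 µM trametinib, or 1 µM NBT with 5 µM trametinib, in each case for 12 h. RNA from each condition was sequenced as 1 library, with 18776212 estimated reads for the control, 19437747 for NBT, 18949915 for trametinib and 19614763 for the combination. No value has a replicate check, no p-value can be given, and the 95% intervals below (exact Clopper-Pearson) cover counting error only, without the variation between cultures. As a check of the trametinib label, 17 of 17 genes on a list of MAPK pathway output (DUSP6, SPRY4, ETV4, ETV5 and others) were at no more than 0.5 times control in the trametinib library, against 2.26% of all genes. Over the NBT library, 17 of 17 were lower in the combination, with a median ratio of 0.193. The oxidative stress gene HMOX1 had 121 estimated reads in the control library, 4825 with NBT, 382 with trametinib and 44631 with both drugs. Epithelial markers were present, with 3799.23 TPM of KRT8, 242.36 TPM of EPCAM and 85.43 TPM of the E-cadherin gene CDH1 in the control library. Of the ductal keratins, KRT7 had 5.74 TPM, and KRT19 was looked for but was not among the genes with values. The mesenchymal marker VIM, known to be high in MIA PaCa-2, had 11.48 TPM and CDH2 had 0.08 TPM in the control library. CDKN2A, a tumor suppressor gene known to be deleted in MIA PaCa-2, had 2643 estimated reads there, and 2674, 3524 and 3187 with NBT, trametinib and both drugs. The cell line entry of the labels carries a different number for each of the 4 libraries, while the titles name MIA PaCa-2 throughout. Which line was sequenced was not tested. Markers of leukocytes (PTPRC, at most 17 reads per library), endothelium (PECAM1, at most 26) and fibroblasts (COL1A2, at most 2, and LUM, at most 5) were near 0. The collagen gene COL1A1 had 45, 27, 98 and 53 reads in the control, NBT, trametinib and combination libraries, and its part in the results was not tested. In bulk RNA, fewer cells expressing a gene and less RNA per cell cannot be told apart.

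MEK sits between the kinase RAF and the kinase ERK, and ERK drives transcription factors such as those of the ETS and AP-1 families, so that blocking MEK lowers their targets and also releases genes that the pathway holds down. Cholesterol and fatty acid genes are under the control of the SREBP factors, which are released from the endoplasmic reticulum when sterols run low. NOTCH ligands such as JAG2 and DLL1 sit on the sending cell and activate NOTCH receptors on its neighbor.

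Both ratios behind the choice are descriptions. The trametinib-to-control ratios of the 89 members ranged from 2.0 to 6.17 with a median of 2.23, and for 66 members the ratio was under 2.5. The 185 comparison genes had a median of 2.94. The combination-to-NBT ratios ranged from 0.307 to 1.5 with a median of 1.23, against a median of 2.18 for the comparison genes. A difference between the combination and NBT libraries remained for many members. The combination library was above the NBT library by more than counting error for 39 members, the interval included 1 for 48, and for 2 members (KRT15 and NPY4R) the interval lay below 1. Such counts depend on read numbers, and their shares over all genes are not given here. In the control library the median was 6.74 CPM for the members and 43.6 for all genes. The combination-to-NBT ratio itself was below 1 for 16 members, against 46.4% of all genes. A ratio below 1.5 over NBT was met by 94.7% of all genes, whether or not trametinib raised them. For 26 members the lower bound of the trametinib ratio was at least 2, for 37 the upper bound of the ratio over NBT was under 1.5, and 12 met both. In the control library the members had a median of 126 estimated reads, and 36 of them had under 100. Just inside the limit of 2 were CDK15 at 2.0, STARD4 at 2.01 and PLEKHG4B at 2.01, and just outside were RASA4B (just under 2.0), CACNB3 at 1.99 and CERS4 at 1.99. At the limit of 1.5 the nearest genes inside were ZBTB10 (just under 1.5), KCNH3 at 1.49 and WNT2B at 1.47, with DLGAP3 and COL4A6 (both rounding to 1.5) and DSC3 at 1.52 outside. These neighbors differ by less than their counting intervals.

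**Figure D1:**
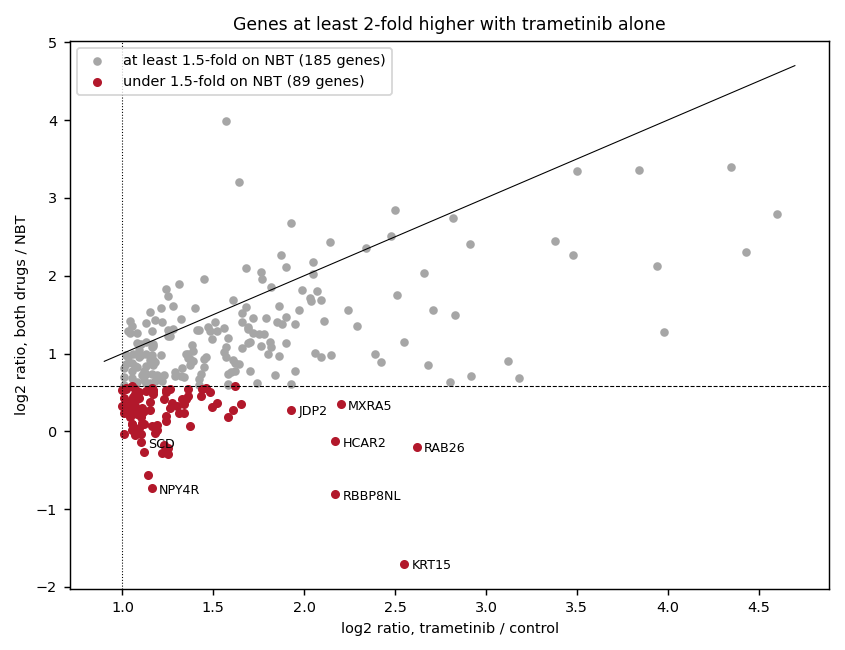
Each point is 1 of the 274 genes at least 2 times control with trametinib, placed by its trametinib-to-control ratio (x axis) and its combination-to-NBT ratio (y axis), both on log2 scales. The 89 members lie below the dashed line at 1.5 and most lie close to the dotted line at 2, while the solid line marks equal ratios.

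The 5 members with the highest trametinib ratios were RAB26, KRT15, MXRA5, HCAR2 and RBBP8NL. KRT15, a keratin of basal epithelial cells (chromosome 17, 41513745 to 41518890, GRCh38.p14), had 651 estimated reads in the control library, 330 with NBT, 3846 with trametinib and 102 with both drugs. Its trametinib-to-control ratio was 5.85 (95% interval 5.39 to 6.37), and its combination-to-NBT ratio was 0.307 (0.243 to 0.384), so that the trametinib difference pointed the other way when NBT was present. The combination library held 0.0257 times the KRT15 level of the trametinib library (0.0208 to 0.0312), the lowest such ratio among the members. Its main transcript carried between 92.4% and 97.7% of these reads in every library. RAB26, a small GTPase of secretory vesicles, had 33, 16, 208 and 14 estimated reads in the same order of libraries, and a trametinib ratio of 6.17 (4.31 to 9.31). MXRA5, a secreted matrix protein, had 376, 166, 1748 and 213 reads, 4.6 times control with trametinib (4.12 to 5.16) and 0.543 times control with both drugs (0.456 to 0.643). RBBP8NL had 59, 23, 269 and 13 reads and was 4.49 times control with trametinib (3.4 to 6.09). HCAR2, the receptor for niacin and ketone bodies, had 41, 23, 189 and 21 reads and the same ratio, 4.49 (3.24 to 6.57). In these 5 genes the trametinib library was the highest, and the NBT and combination libraries were both below control.

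**Figure D2:**
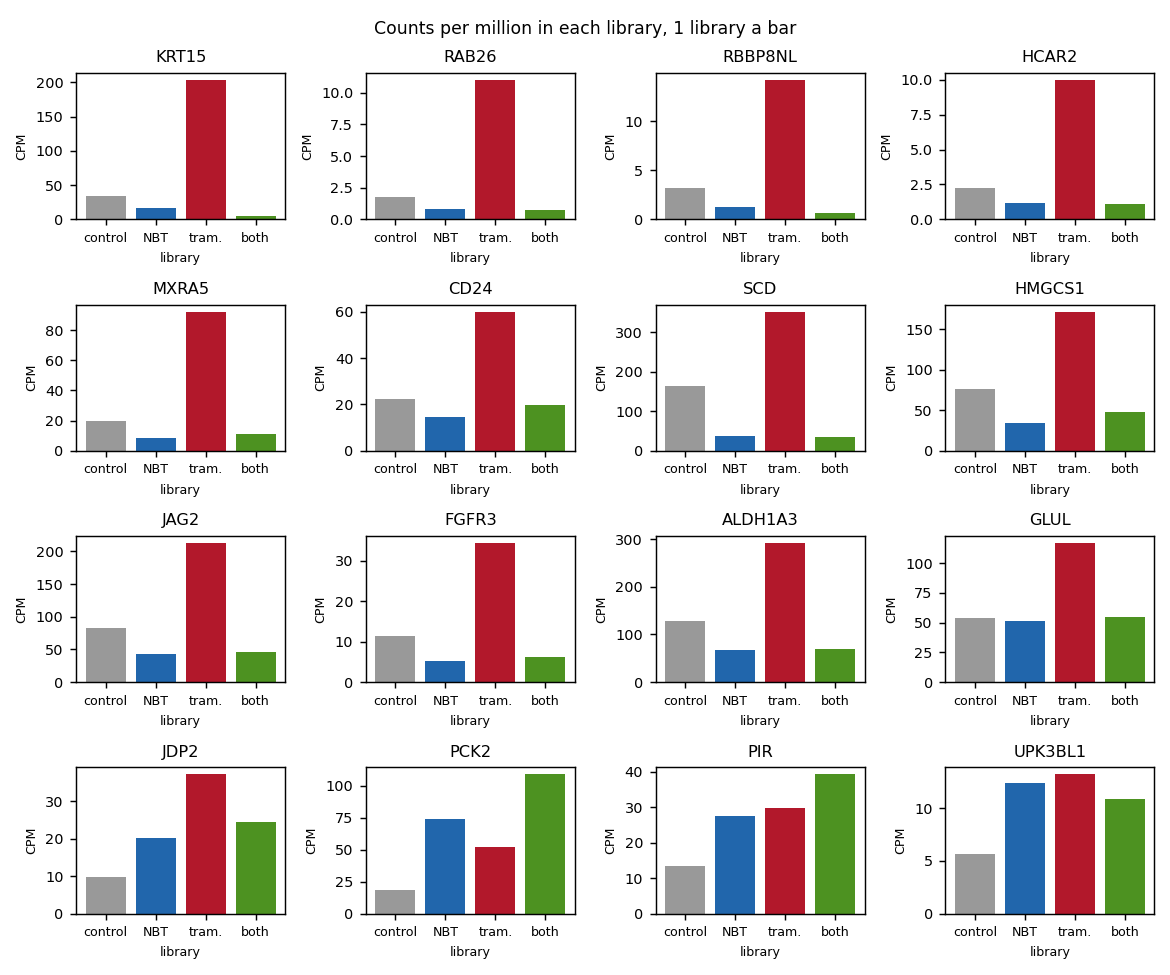
Levels of leading members in the 4 libraries, as bars of CPM on linear axes that start at 0 and differ between panels, with 1 library a bar and no error bars. KRT15 reaches its lowest level in the combination library, whereas PCK2 is highest there.

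The keratins and surface proteins of luminal and basal epithelium did not all behave as KRT15. Reads of KRT8, KRT18 and KRT7 were lower with trametinib than in the control library. In the order control, NBT, trametinib and combination, KRT8 had 63594, 57181, 38101 and 26811 estimated reads. KRT18 had 41334, 38414, 14162 and 14049, and KRT7 had 77, 71, 39 and 33. Of 36 measured genes on a list of epithelial structure genes, 10 were at least 2 times control with trametinib, and 9 of them stayed in the comparison group. KRT5 had 24906, 14518, 67741 and 24441 estimated reads and a combination-to-NBT ratio of 1.67 (1.63 to 1.7), and KRT17 had 2946, 2420, 19093 and 4398 reads with 1.8 (1.71 to 1.89). Their combination-to-trametinib ratios were 0.349 for KRT5 and 0.223 for KRT17, so the combination library was below the trametinib library for these comparison genes as well. KRT17 shares sequence with KRT14 and KRT16, and its count is uncertain for that reason. CD24, a small sialoglycoprotein of the cell surface, had 418, 283, 1139 and 390 reads and a trametinib ratio of 2.7 (2.41 to 3.03). PPL, which encodes the desmosome-linked protein periplakin, had 1109, 959, 2288 and 1261 reads and a ratio of 2.04 (1.9 to 2.2). In the combination PPL was at 1.09 times control (1.0 to 1.18) and CD24 at 0.894 times control (0.776 to 1.03). The metalloprotease TLL2 and the matrix protein SVEP1 were members as well, SVEP1 with 1.96 times control in the combination (1.48 to 2.63).

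The list of sterol and fatty acid genes gave 5 members, a number that depended on the scaling. Of 34 measured genes on a list of cholesterol and fatty acid genes, 6 were at least 2 times control with trametinib and 5 of these were members. The sixth, the fatty acid desaturase FADS3, kept a ratio of 2.53 over NBT (2.4 to 2.68). The list does not hold every such gene. TM7SF2, a sterol reductase gene outside it, was 4.89 times control with trametinib (4.18 to 5.79). TM7SF2 kept a ratio of 2.55 over NBT (2.07 to 3.18). With TMM factors or with median-of-ratios size factors, LSS, MVK and STARD4 were under the trametinib limit and 2 members were left, SCD and HMGCS1, as many as the axon guidance list had under these scalings. SCD, the stearoyl-CoA desaturase that makes monounsaturated fatty acids, had 3080 estimated reads in the control library, 738 with NBT, 6675 with trametinib and 674 with both drugs. Its level was 0.232 times control with NBT (0.213 to 0.251) and 0.0976 times the trametinib level in the combination (0.09 to 0.106), and the trametinib library was the highest. HMGCS1, which makes HMG-CoA for the mevalonate pathway, had 1435, 676, 3263 and 950 reads. The combination-to-NBT ratio of HMGCS1 was 1.39 (1.26 to 1.54). LSS, the lanosterol synthase, had 1277, 619, 2656 and 749 reads. MVK, the mevalonate kinase, had 684, 399, 1434 and 431 reads. STARD4, a sterol transfer protein, had 458, 226, 928 and 329 reads. In these 5 genes the trametinib level was 2.01 to 2.25 times control, the NBT level 0.232 to 0.563 times control and the combination level 0.21 to 0.688 times control, so the NBT library was below control and the combination library below the trametinib library in each.

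Most other genes of the list had smaller differences. With members counted, 31 of the 34 genes were above control with trametinib and 26 below control with NBT. In the combination, 29 were lower than with trametinib alone. For the members the rule sets the trametinib direction and, with NBT below control, also that of the combination over trametinib. Members are in the medians below as well. Of the 10574 genes, 50.6% were below control with NBT and 52.8% lower in the combination than with trametinib. The median ratios were 1.38 for trametinib over control, 0.66 for NBT over control and 0.498 for the combination over trametinib, beside 1.04, 0.997 and 0.983 over the 10574 genes. The sterol sensor gene INSIG1 had 1025, 295, 1951 and 396 estimated reads and missed the trametinib limit, at 1.89. IDI1 at 1.88 and MVD at 1.8, both of the mevalonate pathway, missed it as well. FASN, the fatty acid synthase, was at 0.939 times control with trametinib (0.914 to 0.964) and 0.321 times control with both drugs.

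**Figure D3:**
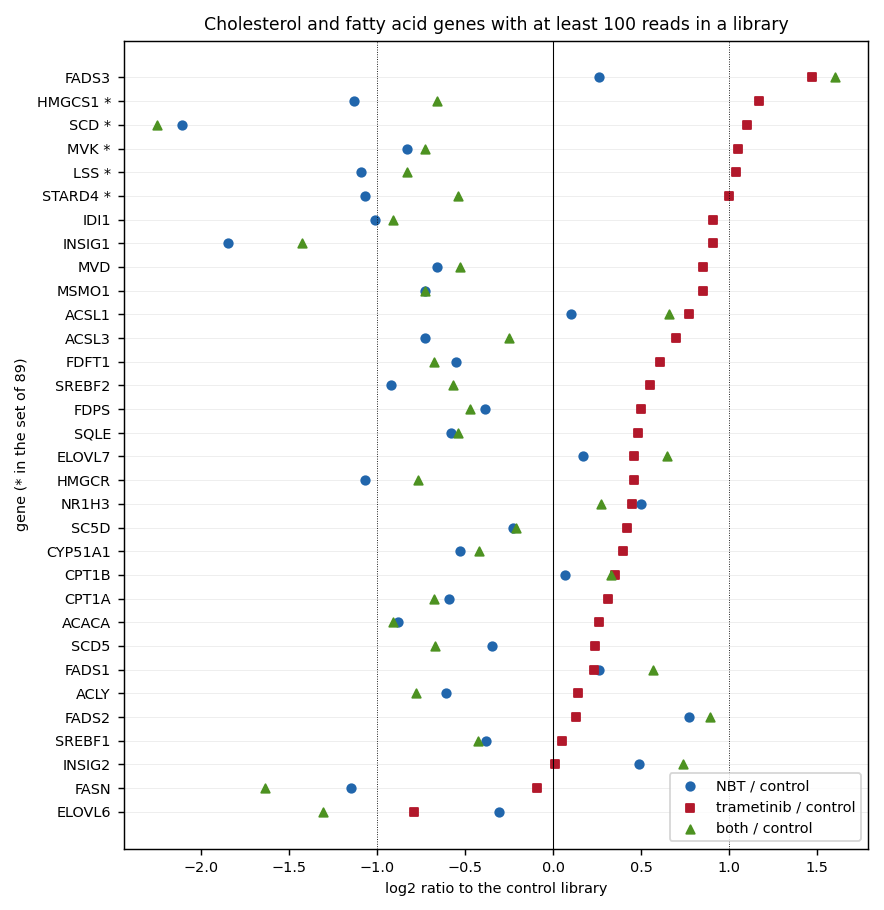
Log2 ratios to control of the NBT (circles), trametinib (squares) and combination (triangles) libraries for 32 of the 34 measured genes of the sterol and fatty acid list, with dotted lines at 0.5 and 2 times control and no error bars. The 5 members, marked with a star, stand at or just right of the line at 2 with trametinib, and each lies below control with NBT and with both drugs.

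The promoters of these 5 genes were read from the RefSeq table for GRCh38.p14, as the 250 bases before each transcription start. CCAAT, the box bound by the NF-Y complex that works with SREBP factors, was present on either strand in at least 1 window of 5 of 5 genes, against 42.2% of 8792 eligible genes with a window and 32.0% of all 35116 windows. The GC box GGGCGG was in 5 of 5 genes, against 76.9% and 42.6%. TATAAA was in 1 of 5 genes, against 7.31% and 10.7%. The AP-1 motif TGACTCA, the CRE TGACGTCA, the E-box CACGTG, the ISRE-like motif (TTTC, any 2 bases, TTTC), the forkhead motif TGTTTAC and the sterol element TCACNCCAC, all searched on both strands, were in 0 of 5. Their shares of all windows were 4.2%, 1.65%, 6.34%, 3.02%, 2.98% and 0.883%. Over the whole cholesterol and fatty acid list, CCAAT was in 19 of 27 genes with a window (70.4%) and the GC box in 26 of 27 (96.3%). Both boxes were thus common in the list and not particular to the 5 members. CCAAT and TCACNCCAC were added to the search after the sequences were seen, and 5 genes are too few to compare. The windows of HMGCS1 (chr5:43313413-43313662, minus strand), MVK (chr12:109573544-109573793, plus strand) and SCD (chr10:100346983-100347232, plus strand) are shown for the boxes they share, with CCAAT or its reverse complement ATTGG in capitals.
HMGCS1: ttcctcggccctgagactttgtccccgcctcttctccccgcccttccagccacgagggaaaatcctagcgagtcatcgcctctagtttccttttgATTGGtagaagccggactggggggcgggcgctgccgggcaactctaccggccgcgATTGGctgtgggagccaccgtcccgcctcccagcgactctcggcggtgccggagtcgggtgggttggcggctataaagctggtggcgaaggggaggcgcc
MVK: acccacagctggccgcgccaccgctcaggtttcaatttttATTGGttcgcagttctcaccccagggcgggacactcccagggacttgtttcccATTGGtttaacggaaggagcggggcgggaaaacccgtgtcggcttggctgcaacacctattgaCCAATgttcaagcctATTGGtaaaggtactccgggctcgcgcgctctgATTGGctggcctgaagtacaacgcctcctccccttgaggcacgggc
SCD: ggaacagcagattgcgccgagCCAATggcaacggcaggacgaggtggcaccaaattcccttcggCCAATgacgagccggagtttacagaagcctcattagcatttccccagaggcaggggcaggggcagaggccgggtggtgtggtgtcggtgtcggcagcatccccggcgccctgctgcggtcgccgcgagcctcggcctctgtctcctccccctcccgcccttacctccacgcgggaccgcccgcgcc
The windows hold 2 such boxes for HMGCS1, 5 for MVK and 2 for SCD. Another HMGCS1 window (chr5:43313182-43313431, minus strand), not shown, holds 0. A match describes letters only and does not show that a factor binds there. Across all 89 members only 63 (70.8%) had a window, which is too few for a check of motifs over the whole group.

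Enzymes of retinoid and aldehyde metabolism were also among the members. ALDH1A3, which makes retinoic acid from retinaldehyde, had 2410 estimated reads in the control library, 1295 with NBT, 5538 with trametinib and 1379 with both drugs. The trametinib ratio of ALDH1A3 was 2.28 (2.17 to 2.39), and over NBT it was 1.06 (0.977 to 1.14). DHRS3, which turns retinaldehyde back into retinol, had 230, 223, 505 and 186 reads and stayed near control with NBT alone, at 0.937 (0.775 to 1.13). DHRS3 was chosen after its values were seen. The levels of ALDH1A3 and DHRS3 in the combination were 0.548 and 0.775 times control. They were the only 2 below control there among 8 members grouped as retinoid, aldehyde, redox and related enzymes, whose median was 1.12 times control. The others were ALDH3B1 at 1.03, CYBRD1 at 1.1, the acetyltransferase NAT1 at 1.14, the sulfotransferase SULT1A3 at 1.15, TP53I3 at 1.25 and PIR at 2.95. The aldehyde dehydrogenase gene ALDH3B2 was in the comparison group. Its ratio was 6.97 with trametinib (4.61 to 11.6) and 1.56 over NBT (0.723 to 3.54).

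Ligands and receptors made up 13 members. JAG2 had 1549 estimated reads in the control library, 852 with NBT, 4042 with trametinib and 903 with both drugs, a trametinib ratio of 2.59 (2.44 to 2.74) and a ratio over NBT of 1.05 (0.955 to 1.15). DLL1 had 350, 209, 714 and 205 reads and ratios of 2.02 (1.78 to 2.3) and 0.972 (0.798 to 1.18). Both ligands were lower in the combination than in the control, at 0.558 and 0.561 times. Another NOTCH ligand, JAG1, had 861, 928, 649 and 871 reads. JAG1 was lower with trametinib, at 0.747 times control (0.673 to 0.828), and at 0.968 times control in the combination (0.88 to 1.07). With trametinib, 11 of 15 measured NOTCH pathway genes were above control. DLL1 did not reach the trametinib limit with TMM factors, median-of-ratios size factors or TPM values, whereas JAG2 met both limits under all 6 alternative ways of computing the ratios. Of 15 measured NOTCH pathway genes, 4 were at least 2 times control with trametinib. The other 2, the receptor NOTCH3 and the target HES4, kept ratios of 2.94 (2.0 to 4.52) and 1.65 (1.42 to 1.92) over NBT. The receptor tyrosine kinase FGFR3 had 211, 99, 652 and 121 reads and a trametinib ratio of 3.06 (2.62 to 3.59). FGFR3 was the only gene of 22 measured receptor kinases, ligands and adaptors at least 2 times control with trametinib. Of 34 measured axon guidance genes, 4 reached 2 and 3 were members, the repellents SEMA3E and SEMA3F and the ephrin EFNA1. EFNA1 had 385, 468, 786 and 694 reads, so its combination level was 1.72 times control (1.52 to 1.96) and its ratio over NBT 1.47 (1.31 to 1.66). NPY4R, a receptor for pancreatic polypeptide, had 63, 43, 143 and 26 reads, and the combination was 0.605 times NBT (0.353 to 0.998).

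Members among channels, transporters and metabolic enzymes are described by gene. Of 26 measured ion channel genes 3 were at least 2 times control with trametinib, and 1 of them, the potassium channel KCNH3, was a member. KCNH3 had 172, 92, 534 and 139 estimated reads and a trametinib ratio of 3.07 (2.59 to 3.67). The glucose transporter SLC2A12 had 73, 47, 221 and 54 reads and a ratio of 2.99 (2.29 to 3.96). KCNH3 and SLC2A12 were below control with NBT alone, at 0.518 and 0.63 times, and lower with both drugs than with trametinib. GLUL, the glutamine synthetase, had 1009, 1005, 2218 and 1077 reads. For GLUL the control, NBT and combination libraries were nearly level, with NBT at 0.963 (0.881 to 1.05) and the combination at 1.02 times control (0.937 to 1.11). CKB, the brain-type creatine kinase, had 157, 119, 443 and 170 reads and was likewise back near control in the combination, at 1.04 (0.829 to 1.3). PINK1, a kinase of mitochondrial quality control, had 687, 631, 1445 and 862 reads and 1.2 times control in the combination (1.09 to 1.33).

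Genes of innate immunity and antigen presentation gave 5 members. PARP9, a mono-ADP-ribosyltransferase of the interferon response, had 253 estimated reads in the control library, 240 with NBT, 656 with trametinib and 332 with both drugs. The immunoproteasome subunit PSMB8 had 96, 81, 199 and 97 reads, and MR1, which presents small metabolites to T cells, had 58, 73, 150 and 98. Of 26 measured interferon genes 4 were at least 2 times control with trametinib, and 3 of them kept at least 1.5 over NBT. Of 16 measured antigen presentation genes 2 were, 1 of them a member.

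For 5 of the 89 members NBT alone already gave at least 2 times control (5.62%, against 1.32% of all genes). The same held for 25 of the 185 comparison genes, so it was not particular to the members. PCK2, the mitochondrial PEP carboxykinase and a target of the stress factor ATF4, had 352 estimated reads in the control library, 1439 with NBT, 981 with trametinib and 2138 with both drugs. PCK2 was 3.94 times control with NBT (3.51 to 4.45), 2.76 with trametinib (2.44 to 3.13) and 5.81 with both (5.19 to 6.53), and was the one member whose combination level was at least 2 times its trametinib level (2.65% of all genes). PIR, a target of the antioxidant factor NRF2, had 249, 533, 565 and 769 reads and was 2.95 times control with both drugs (2.56 to 3.42). JDP2, a repressor that binds AP-1 sites, had 182, 391, 702 and 479 reads. UPK3BL1, which encodes a uroplakin-like protein, had 106, 241, 250 and 214. All 3 treated libraries were above control for each of these 5 genes. PCK2 is in a list of the unfolded protein response and ATF4 targets, where 19 of 29 measured genes were at least 2 times control with NBT, and PIR in an NRF2 list, where 10 of 18 were. Members of the p53, FOXO and circadian lists were TP53I3, PINK1 with BCL6, and TEF, of 18, 13 and 13 measured genes. The other lists, of the complement, NF-kB, matrix, WNT, TGF-beta, hypoxia, lysosome, KLF, actin and histone genes, had 7 to 37 measured genes and 0 members each, from which nothing is read at such sizes.

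At the other end, NBT alone gave no more than 0.5 times control for 11 members (12.4%, against 9.73% of the 185 comparison genes and 0.842% of all genes). These were SCD, RBBP8NL, MXRA5, FGFR3, HMGCS1, TLL2, LSS, RAB26, STARD4, KRT15 and SORCS2. NBT was below control for 57 of the 89 members (64.0%), against 50.3% of the comparison genes and 50.6% of all genes. The interval lay below 1 for 33 members and above 1 for 20, counts that depend on read numbers and are given without a share over all genes. The NBT library is also the denominator of the rule, and the control library that of the trametinib ratio. The member shares with NBT are therefore not independent of the choice. The combination was at no more than 0.5 times the trametinib level for 48 members (53.9%), against 23.2% of the comparison genes and 3.27% of all genes. By the rule this ratio cannot exceed 0.75 times the NBT-to-control ratio, which fixes its direction for most members and, for the 11 genes above, its place under 0.5. Against control, the combination was lower for 38 members (48.4% of all genes), at least 2 times control for 8 (4.07%) and at no more than 0.5 times for 7 (3.89%). The 8 were PCK2, PIR, SLC52A1, JDP2, ARHGEF40, CGB7, ZBTB10 and WNT2B, and the 7 were KRT15, SCD, RBBP8NL, NPY4R, RAB26, TLL2 and HCAR2. The trametinib library was the highest of the 4 for 85 members, and the combination for 4 (PCK2, PIR, SLC52A1 and ZBTB10). For the 57 members below control with NBT, the rule itself makes the trametinib library the highest, so this count only describes the choice. The median CPM of the members was 6.74 in the control library, 7.37 with NBT, 15.8 with trametinib and 9.55 with both drugs. These medians can come from different genes, so they do not give the change of a typical member. The median ratio over the members was 0.887 for NBT over control, 1.07 for the combination over control and 0.484 for the combination over trametinib.

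**Figure D4:**
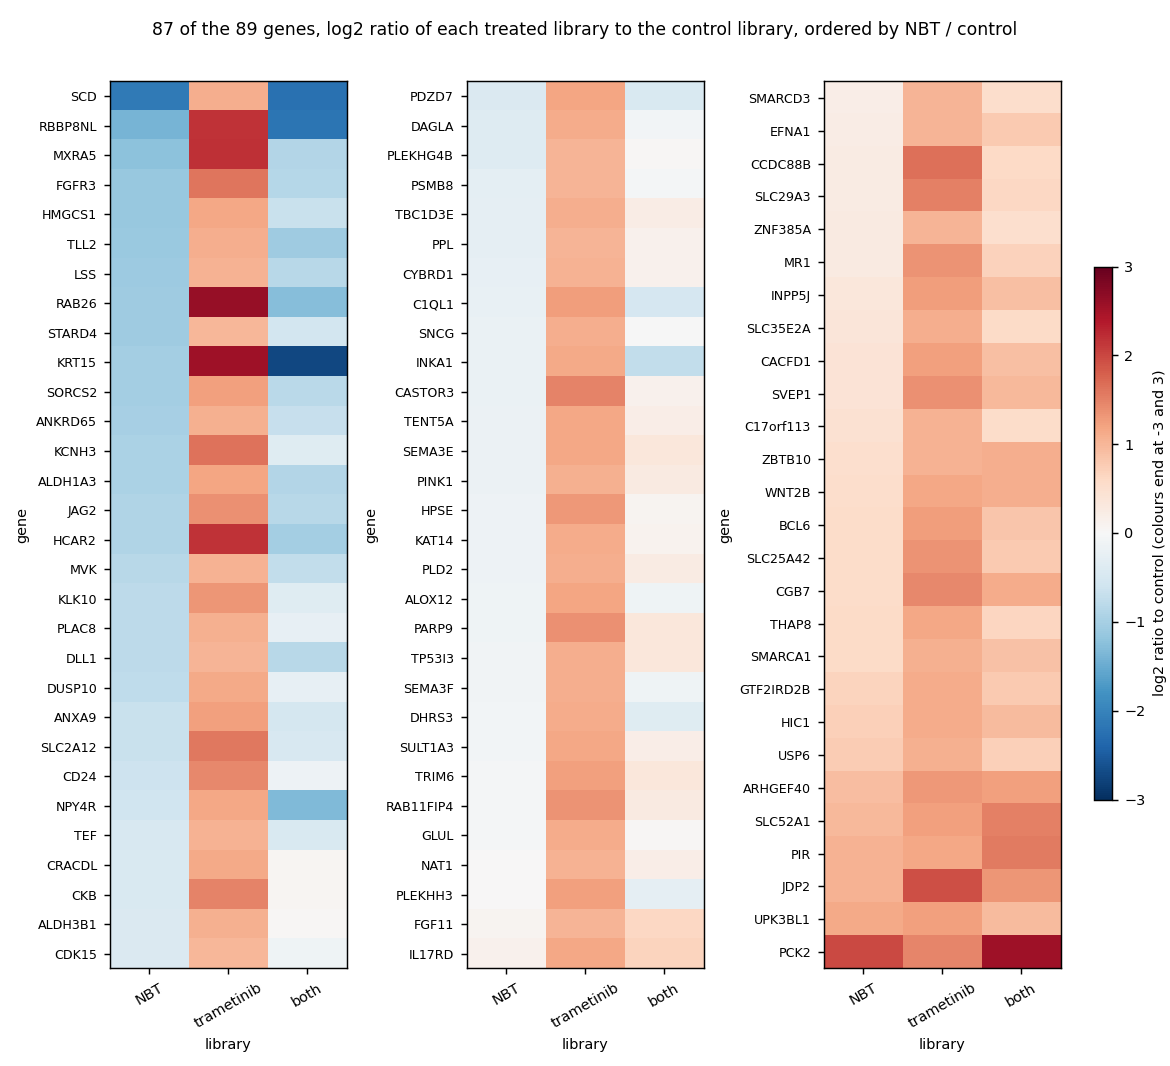
Log2 ratio to control of 87 of the 89 members in the NBT, trametinib and combination libraries, ordered by the NBT-to-control ratio. The trametinib column is at 1 or above throughout by the rule, and the combination column runs from below control, as for KRT15 and SCD, to above it, as for PCK2.

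The members were also sorted by what their products do, after their names and values were known, by ratios tied to the rule, so the counts only describe them. For comparison, 64.0% of all members and 50.6% of all genes were below control with NBT. Differences between the groups were not tested, and not all groups are given. Of 13 epithelial surface, junction and matrix genes, 11 were below control with NBT and the median combination-to-trametinib ratio was 0.331. The 9 lipid enzymes and sterol carriers had 8 below control with NBT and a median of 0.343. The 11 transcription and chromatin genes had 2 below control with NBT, a median NBT-to-control ratio of 1.45 and a median combination-to-trametinib ratio of 0.709. HIC1, BCL6 and ZBTB10, which encode zinc finger transcription factors, stood at 1.65, 1.45 and 1.43 times control with NBT. The 14 signaling and vesicle genes had a median combination-to-trametinib ratio of 0.462. It was 0.427 for the 13 ligands and receptors and 0.617 for the 6 transporters and channels. In these groups 10, 8 and 2 genes, in that order, were below control with NBT.

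Some members carry reads that could belong to near copies. CASTOR3, TBC1D3E, SULT1A3, GTF2IRD2B, SLC35E2A, USP6, CGB7, NPY4R, UPK3BL1 and HCAR2 have closely similar genes, and TRIM6 overlaps a read-through gene, so that their estimated counts are uncertain. The estimates were not whole numbers (a value within 0.005 of a whole number counted as whole) for 47 of the 89 members (52.8%), against 55.7% of all genes. Among the deposited transcripts, 18 members had 1 transcript, the transcript with the most reads over the 4 libraries met both limits itself for 56 members, and its share of the gene's reads moved by 20 percentage points or more between libraries for 40. These transcript counts were made for the members only, without a share over all genes, so they are not read as a trait of the members. For FGFR3 this transcript was estimated at 174, 0, 367 and 65 reads while the gene had 99 reads with NBT, so single transcripts are not described further.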

How the data were processed

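RNA of cells labelled MIA PaCa-2 in 4 conditions (1 library each) was assigned by title. The authors deposited, per gene and per transcript, estimated counts that are not normalized, TPM values (scaled to length and library) and FPKM values, which were not used here. The submitters' processing notes name Bowtie2 2.2.5, RSEM 1.2.8 and hg38, without their roles. Such counts share out reads that match several genes, and whether strand was used is not given in the sources used here, so overlapping genes cannot be told apart. Depth was 18776212 to 19614763 estimated reads per library.

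Counts were scaled to CPM after adding 0.5. Intervals are exact Clopper-Pearson 95% intervals of the ratio of 2 rounded counts. With 1 library per condition no count test was run. The members and the 24 gene lists were chosen with earlier results of these data known. Genes were named by rule: the 20 largest trametinib ratios, the 10 with most trametinib reads, the 10 lowest combination-to-trametinib and 10 highest NBT ratios, list members, and the 3 nearest each limit. Other genes given with values, such as DHRS3, SORCS2, FASN, KRT5, KRT17 and HMOX1, were chosen after their values were seen. Some genes are not reported here. The steps were tested on simulated counts with larger effects and more reads than most members have, so that test does not cover members near the limits. Alternatives were edgeR (4.0.16) TMM factors, DESeq2 (1.42.0) size factors, deposited TPM with 0.1 added, other added reads, filters and limits. Transcript counts summed per gene and rounded counts were also used. R 4.3.3, Python 3.11.15, pandas 2.3.3, numpy 2.4.6, scipy 1.17.1 and matplotlib 3.10.9 were used.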

Additional observations from a re-analysis of the deposited data

Results flagged for a closer look

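For 2 members the trametinib difference pointed up without NBT and down with it. KRT15 was above control with trametinib, and the combination was 0.307 times the NBT library. NPY4R was above control with trametinib, and the combination was 0.605 times the NBT library, with 43 and 26 estimated reads behind that ratio. With 1 library per condition the difference was not tested.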

How the results depend on the processing

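The number of members depended on the limits more than on the scaling. It was 89 as reported, 70 with TMM factors (66 of the 89 remained), 73 with median-of-ratios size factors (71 remained), 79 with TPM values (71 remained) and 86 with 5 added reads (82 remained). A count minimum of 300 gave 44 members and no minimum gave 962. A trametinib limit of 3 gave 9 and of 1.5 gave 492, and a limit over NBT of 1.2 gave 38 and of 2 gave 166. Requiring the bounds of the counting intervals to meet both limits gave 12. Genes with whole counts in all 4 libraries, a setting chosen after seeing the data, gave 42. Of 624 recomputed ratios of single genes under 6 alternatives, 5 moved beyond their counting interval. The 3 that changed sign were combination-to-NBT log2 ratios near 0, of TEF (0.02 to -0.01 with TMM factors), GTF2IRD2B (0.11 to -0.01 with TPM) and SEMA3F (-0.03 to 0.19 with TPM), and 0 trametinib-to-control ratios did. Among the 6 alternatives, transcript counts summed per gene and rounded counts largely repeat the gene counts and could hardly move a ratio. Under each of them 0 ratios moved. Of the 89 members, 61 remained under all 6 alternatives. Among those lost under TMM factors were LSS, MVK, STARD4, DLL1, EFNA1, PINK1, PSMB8, PPL, TEF and ZBTB10, and KCNH3, TP53I3 and WNT2B were lost with TPM values. No paired analysis was possible because each condition has 1 library and the labels give no replicate numbers, and for the same reason no replicate could be left out. Depth limits the members with few reads, of which 36 had under 100 in the control library.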
